A study of Rattus norvegicus with 30 samples.

Results

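Mitochondrial ribosomal protein genes were followed through poly(A) RNA-seq of the rat dorsal hippocampus. They were taken as the rows of the deposited count table whose symbol begins with Mrpl or Mrps followed by a number and whose counts over the 30 libraries sum to at least 300. This gave 68 of 71 rows with such a symbol, among 17455 rows in all, and all 68 passed the filter on low counts. The 3 rows outside the rule were Mrpl36 with 0 counts, Mrpl53 with 2 and Mrpl30 with 118, and the member with the fewest counts was Mrpl1 with 1539. The rule itself uses only the symbol and the summed count. The libraries came from TgF344-AD rats ("alzheimer" in the labels) and wildtype rats, males and females, on standard (chow) or western diet. TgF344-AD is a transgenic line on the Fischer rat background that carries mutant human APP under the mouse prion promoter, so each comparison of genotype is of 1 such line with its wildtype. The groups with 4 libraries each were male wildtype chow, male wildtype western, male alzheimer chow, male alzheimer western, female wildtype chow and female alzheimer chow. Female wildtype western and female alzheimer western had 3 each. All groups have libraries from both of the 2 cohorts named in the labels, with 14 libraries in cohort 1 and 16 in cohort 2. Ages and the length of the diet are not given in the labels, which also do not state that each library is a separate animal, so the p-values below measure the spread between libraries.

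The mitochondrial ribosome translates the few messenger RNAs made from mitochondrial DNA, all of which in mammals encode subunits of the oxidative phosphorylation complexes. Its RNAs come from the mitochondrial genome, while its proteins are encoded in the nucleus, made on cytosolic ribosomes and imported. Some of these proteins descend from the bacterial ribosome, and others were acquired in mitochondria. In neurons, whose synapses draw heavily on oxidative phosphorylation, the mitochondrial ribosome links nuclear gene activity to the building of the respiratory chain. Of the 68 members, 42 encode large-subunit proteins and 25 small-subunit proteins. Mrps30 and Mrps18a are counted with the large subunit, where their proteins sit despite the small-subunit symbol. The remaining member, Mrps36, keeps its ribosomal name although its product is now known as a component of the alpha-ketoglutarate dehydrogenase complex. By ancestry, 40 of the 67 ribosomal members have a bacterial homologue and 27 are specific to mitochondria.

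RefSeq promoter windows on GRCr8, from 250 bases before to 50 after the annotated start, were found for 53 of the 68 members. The members are nuclear genes spread over many chromosomes, and they varied together between libraries. A link of the promoter sequences to that shared variation was not tested. NRF1, ETS-family factors such as GABP, and YY1 are textbook regulators of nuclear genes for mitochondria. The 53 members had 55 windows. Shares count genes, and a gene with more than 1 window was matched if any of them held the letters. Searched on both strands, the NRF1-type letters GCGCANGC were in 12 of 53 members (22.6%). The share was 10% of all 27457 genes with a window and 18.6% of the 9892 tested genes with one. The ETS-type letters CCGGAAG were in 17 of 53 (32.1%), against 9.63% of all genes with a window and 16.6% of tested genes. In the 250 bases before the start alone the ETS-type share was 18.9%, against 14.4% for tested genes. The YY1-type letters AAGATGGC were in 13 of 53 (24.5%), against 3.62% and 5.26%. The first base of the YY1-type matches lay at a median of 18 bases after the start (quartiles 6 and 26). In the 250 bases before the start only 2 of 53 members (3.77%) held one. TATAAA was in 8 of 53 members (15.1%), against 15.3% of all genes with a window and 7.2% of tested genes. At least 1 of the NRF1, ETS and YY1 types was in 31 of 53 members (58.5%). The share was 20.2% of all genes with a window and 34.3% of tested genes. These are matches of letters and not measured binding.

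The first 3 sequences are the 250 bases before the start of the members called lower in the alzheimer libraries. They lie at chr7:9103275-9103524 (Mrpl54), chr10:80092095-80092344 (Mrpl27) and chr10:106256496-106256745 (Mrpl12), all on the plus strand of GRCr8. The others are 100-base stretches of the windows of Mrpl17, at chr1:169575700-169575799 on the minus strand, and Mrpl57, at chr15:36086357-36086456 on the plus strand. They were chosen as stretches dense in matches. Capitals mark NRF1-type and ETS-type matches on either strand.
Mrpl54: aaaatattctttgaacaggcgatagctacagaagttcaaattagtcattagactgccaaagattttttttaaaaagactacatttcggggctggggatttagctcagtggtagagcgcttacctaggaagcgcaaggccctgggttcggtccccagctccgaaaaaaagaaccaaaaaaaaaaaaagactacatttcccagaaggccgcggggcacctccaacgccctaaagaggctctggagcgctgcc
Mrpl27: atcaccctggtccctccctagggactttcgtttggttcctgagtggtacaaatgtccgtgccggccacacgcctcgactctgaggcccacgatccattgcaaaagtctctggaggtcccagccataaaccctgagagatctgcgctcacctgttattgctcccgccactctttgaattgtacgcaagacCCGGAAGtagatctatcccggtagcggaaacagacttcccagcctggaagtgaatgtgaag
Mrpl12: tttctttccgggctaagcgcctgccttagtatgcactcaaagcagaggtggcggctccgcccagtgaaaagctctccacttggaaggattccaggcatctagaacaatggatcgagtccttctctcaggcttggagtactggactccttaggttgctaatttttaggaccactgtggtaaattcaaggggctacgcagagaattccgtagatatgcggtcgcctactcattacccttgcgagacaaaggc
Mrpl17: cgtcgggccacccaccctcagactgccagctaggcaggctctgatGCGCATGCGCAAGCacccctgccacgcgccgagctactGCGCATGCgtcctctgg
Mrpl57: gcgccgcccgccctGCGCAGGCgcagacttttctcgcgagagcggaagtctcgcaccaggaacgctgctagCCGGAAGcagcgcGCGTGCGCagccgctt
The 3 genes called lower differ in these letters. Mrpl27 holds 1 ETS-type match, while the windows of Mrpl54 and Mrpl12 hold none of the motifs searched. Mrpl17, whose level varied little between libraries, holds 4 NRF1-type matches, in part overlapping, and Mrpl57 holds 2 NRF1-type matches and 1 ETS-type match.

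The median library held 17.8 M counts, where M stands for mega, the totals ranging from 13.9 M to 31.4 M. The members took 0.211 to 0.234% of each library. Transgene and sex labels were met by the counts: App was at 3136 to 3398 counts per M (CPM) in the 15 alzheimer libraries and at 1548 to 1781 in the 15 wildtype libraries, and Eif2s3y and the Xist row followed the labelled sex in all 30. Replicates of a group were not duplicates, with a chi-square per degree of freedom of 2.98 to 10.95 over 42 pairs. Hippocampal markers were present, with the summed level of 6 neuronal markers at 9897 to 11190 CPM. Choroid plexus markers, from tissue that adjoins the dorsal hippocampus, summed to 3.19 to 63.6 CPM and were highest in replicates 30, 20 and 11. In bulk tissue, fewer cells of a type and less RNA per cell cannot be told apart.

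The spread between libraries of a group was taken as a coefficient of variation. Its median was 6.22% over the members and 8.20% over the 12547 genes tested. It was 8.41% over the 8053 tested genes between the lowest and the highest member mean in CPM. That range starts at Mrpl1, with a mean of 2.78 CPM, while the next member, Mrps28, had a mean of 11.5 CPM. The set is thus not matched to the members in level, and a matched comparison was not made. Mrpl17, a bacterial-type large-subunit protein, had the smallest spread of the 68 at 2.85%, and its level ran only from 85.4 to 96.1 CPM over all 30 libraries. Mrpl3, which reaches toward the catalytic centre, ran from 65.1 to 76.8 CPM, and Mrps2 of the small subunit from 55.4 to 66.0 CPM. Mrpl1, the protein of the L1 stalk, had the largest spread at 22.04% and ran from 1.66 to 3.99 CPM. The next largest spreads, 12.4% for Mrps10 and 11.6% for Mrps28, belonged to the members next lowest in CPM. Mrpl17 was the member highest in CPM. The part of low counts in these spreads was not tested. Counts grow with transcript length, and lengths were not used here, so levels of different genes are not ranked against each other as abundances.

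Among genotype, diet, sex and cohort, members passed the test for genotype alone. Of 68 members 3 were lower in alzheimer than in wildtype (4.41%) by edgeR's quasi-likelihood test at an adjusted p under 0.05, and 0 were higher. Over all tested genes 3.89% were called lower, so the members' share was near the background. Over all 68 members 54 log2 fold changes were negative, with a median of -0.038 against 0.002 over all genes tested. Among the 65 members not called 51 were negative, with a median of -0.033. At an unadjusted p under 0.05 the count was 15 lower (22.1%) and 0 higher, against 10.7% lower and 11.6% higher over all genes tested. The estimates ran from -0.13 (Mrpl27) to 0.054 (Mrps27), and for 67 of 68 members the 95% interval lay within 0.2 of 0 on the log2 scale, Mrpl1 being the exception at -0.31 to 0.15.

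**Figure D1:**
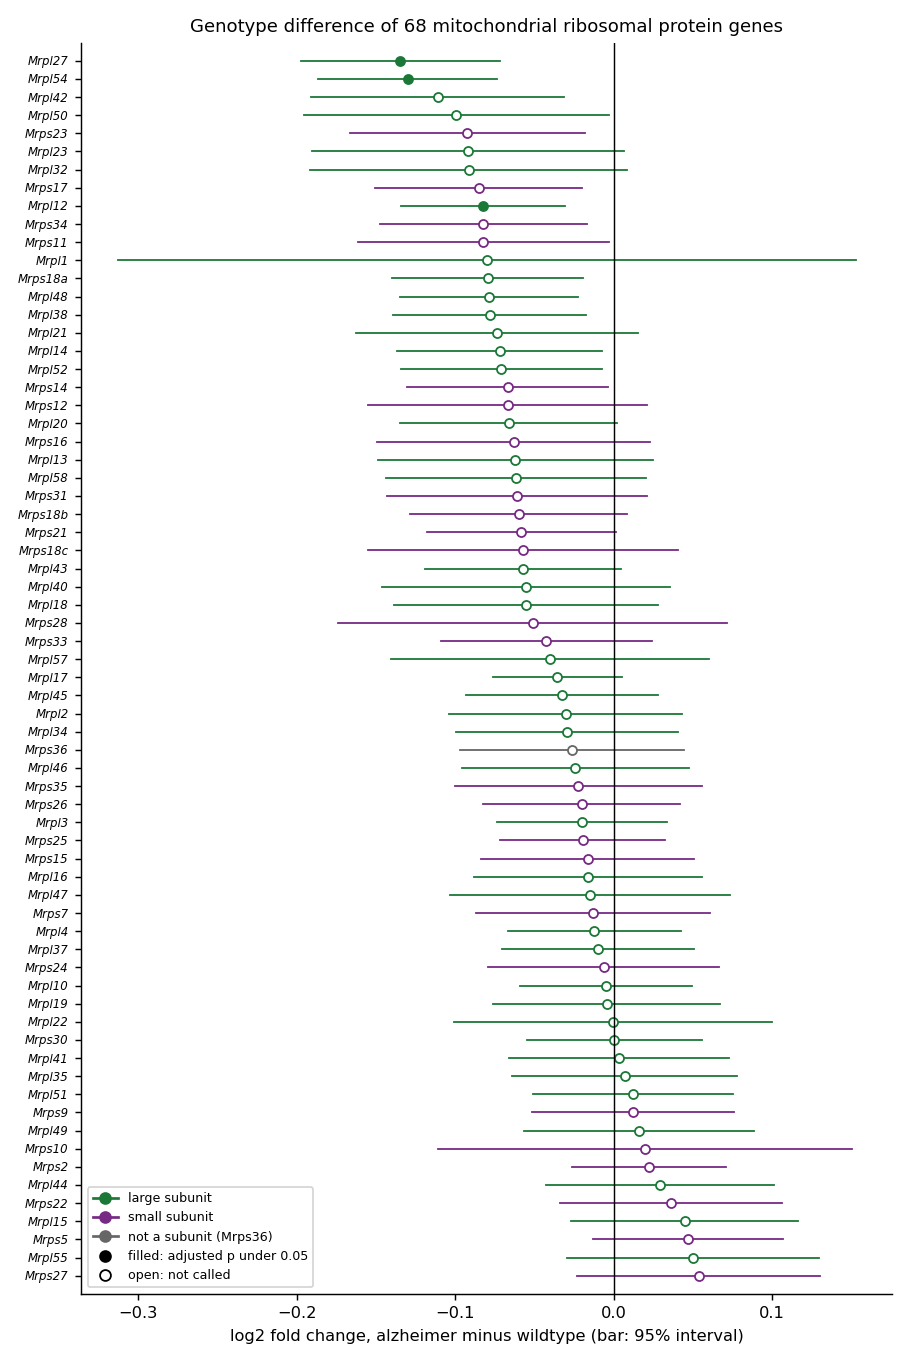
Log2 fold change (alzheimer minus wildtype, horizontal axis) of each of the 68 members with its 95% interval from edgeR, coloured by subunit. Of the points, 54 lie left of 0, and the 3 filled points, at -0.13, -0.13 and -0.082, are those with an adjusted p under 0.05.

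Mrpl54, a large-subunit protein with no bacterial counterpart, was lower in each combination of sex and diet. In males on chow its level was 45.2, 46.6, 48.1 and 51.4 CPM in wildtype and 44.0, 44.4, 45.6 and 52.9 CPM in alzheimer. In males on western diet it was 48.6, 51.7, 51.9 and 52.6 CPM in wildtype and 42.1, 43.7, 44.2 and 46.0 CPM in alzheimer. The males on chow thus overlapped, through 1 alzheimer library (replicate 8) that was the highest of all 30, and the males on western diet did not. In females on chow the level was 47.1, 51.1, 51.2 and 52.4 CPM in wildtype and 43.7, 45.2, 46.2 and 46.4 CPM in alzheimer. In females on western diet it was 47.4, 47.5 and 47.7 CPM in wildtype and 42.7, 43.4 and 45.3 CPM in alzheimer. Neither pair of female groups overlapped. Over all strata Mrpl54 fell by 0.13 ± 0.028 (SE) on the log2 scale, with an adjusted p of 0.00257 from edgeR, a change of -8.62%. It was below the matched wildtype mean in 14 of 15 alzheimer libraries.

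Mrpl27 is the mitochondrial form of bacterial L27, which lies beside the transfer RNAs at the catalytic centre. In males on chow its level was 36.3, 40.1, 40.4 and 41.2 CPM in wildtype and 34.1, 37.3, 38.4 and 41.0 CPM in alzheimer. In males on western diet it was 39.0, 40.03, 42.8 and 45.03 CPM in wildtype and 34.9, 35.5, 38.1 and 42.1 CPM in alzheimer. Both pairs of male groups overlapped. In females on chow the level was 39.8, 39.95, 43.5 and 44.0 CPM in wildtype and 36.3, 37.4, 38.1 and 38.3 CPM in alzheimer. In females on western diet it was 41.0, 41.2 and 42.1 CPM in wildtype and 35.5, 37.2 and 37.7 CPM in alzheimer. All female alzheimer libraries lay below all female wildtype libraries. The fitted change was -0.13 ± 0.031 on the log2 scale (adjusted p = 0.00473, -8.91%), and 13 of 15 alzheimer libraries were below the matched wildtype mean. In the GRCr8 annotation Mrpl27 overlaps Eme1, which was too low to be tested. The strand setting of the counting is not given in the sources used here.

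Mrpl12 is the stalk protein that recruits translation factors, and it also binds the mitochondrial RNA polymerase. In males on chow its level was 56.3, 57.5, 59.4 and 61.5 CPM in wildtype and 52.6, 53.8, 58.0 and 60.4 CPM in alzheimer. In males on western diet it was 56.2, 60.9, 61.0 and 61.9 CPM in wildtype and 51.6, 52.1, 53.8 and 57.6 CPM in alzheimer. The male groups overlapped on both diets. In females on chow the level was 56.7, 56.9, 58.4 and 62.5 CPM in wildtype and 55.5, 55.5, 56.5 and 57.0 CPM in alzheimer. In females on western diet it was 58.3, 58.7 and 61.0 CPM in wildtype and 56.9, 57.2 and 58.0 CPM in alzheimer. Of the female groups only those on western diet did not overlap. The change was -0.082 ± 0.025 on the log2 scale (adjusted p = 0.0385, -5.55%), with 14 of 15 alzheimer libraries below the matched wildtype mean. This call was near the threshold: it was lost when any 1 of 16 of the 30 libraries was left out, with adjusted p from 0.0200 to 0.0759 over all 30 omissions, and without the 3 libraries richest in choroid plexus markers (adjusted p = 0.133).

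**Figure D2:**
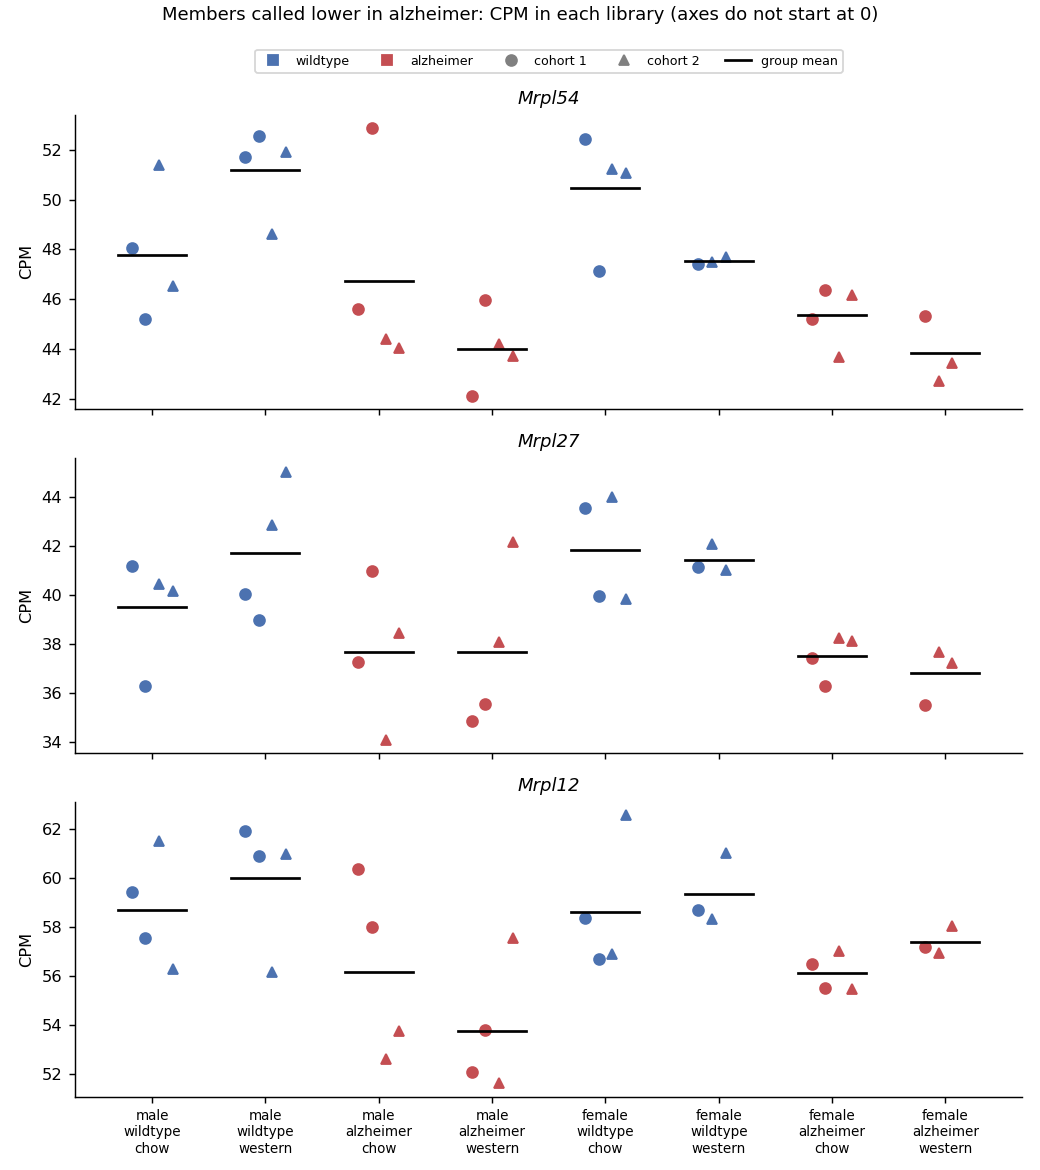
Level (CPM, vertical axes that do not start at 0) of Mrpl54, Mrpl27 and Mrpl12 in each of the 30 libraries by group, with group means as bars, genotype as colour and cohort as marker shape. For Mrpl54 the alzheimer points run from 42.1 to 52.9 and the wildtype points from 45.2 to 52.6, and the 1 high alzheimer point is replicate 8.

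Within each cohort fitted alone, the direction was the same for these 3 genes, while fewer passed the test. Mrpl54 was at -0.090 in cohort 1 (adjusted p = 0.580) and at -0.17 in cohort 2 (adjusted p = 0.0122). Mrpl27 was at -0.14 in both (adjusted p = 0.312 and 0.0502). Mrpl12 was at -0.070 (adjusted p = 0.580) and -0.098 (adjusted p = 0.161). In cohort 1, each female western group has a single library. Over all members 45 of 68 were negative in both cohorts and 3 positive in both, and the medians were -0.051 and -0.032.

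The members next in rank did not pass the test. Mrpl48, of the large subunit's central protuberance, had a change of -0.079 ± 0.028 (adjusted p = 0.0743), and Mrpl42 one of -0.11 ± 0.039 (adjusted p = 0.0775). Mrps18a had one of -0.080 ± 0.030 (adjusted p = 0.0957). At the other end stood Mrps27, a small-subunit RNA-binding protein, Mrpl55, Mrps5 and Mrpl15, at 0.054, 0.050, 0.047 and 0.045. Mrpl55 shares its locus with Guk1, which itself was lower in alzheimer (-0.12, adjusted p = 0.0002001). The count of calls hung on 1 library: without replicate 8, a male alzheimer chow library, 8 members were called lower, while the share over all genes called lower was 4.88%. The 5 added were Mrpl42, Mrpl48, Mrpl38, Mrps34 and Mrps18a.

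Estimates were mostly negative for both subunits. The large-subunit members had a median of -0.038, with 34 of 42 negative and 3 called, and the small-subunit members one of -0.042, with 19 of 25 negative and 0 called (5 at an unadjusted p under 0.05). DESeq2 and limma-voom each called the same 3 members, where 4.71% and 4.38% of all genes were called lower. By ancestry the medians were -0.043 for the 40 with a bacterial homologue and -0.040 for the 27 specific to mitochondria. A difference between these classes was not tested.

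Several members with roles of their own did not pass the test. The genes Mrps18a, Mrps18b and Mrps18c encode relatives of bacterial S18, the first placed in the large subunit and the others in the small. Mrps18a was at 47.4 to 62.5 CPM in alzheimer (median 54.9) and 55.0 to 62.05 CPM in wildtype (median 57.6). Mrps18b was at 25.6 to 32.8 CPM (median 30.3) and 28.7 to 33.7 CPM (median 31.3), with a change of -0.060 ± 0.034 (adjusted p = 0.303). Mrps18c was at 13.7 to 18.9 CPM (median 16.3) and 14.8 to 20.4 CPM (median 16.3), with a change of -0.057 ± 0.048 (adjusted p = 0.530). All 3 estimates were negative, the groups overlapped for each, and 0 of the 3 passed the test. Mrps12, at the decoding site, had a change of -0.067 ± 0.043 (adjusted p = 0.385). Mrpl45, which holds the ribosome to the inner membrane at the tunnel exit, had one of -0.033 ± 0.030 (adjusted p = 0.573). Mrpl58, a peptidyl-tRNA hydrolase built into the large subunit, had one of -0.062 ± 0.040 (adjusted p = 0.389). Mrps30 stood at 0.0005 ± 0.027 (adjusted p = 0.995), with a 95% interval of -0.055 to 0.056. Mrps36, the dehydrogenase component, had a change of -0.026 ± 0.035 (adjusted p = 0.726).

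The genotype contrast was then split by diet and by sex. On western diet 2 of 68 members were lower in alzheimer, Mrpl54 (-0.17, adjusted p = 0.0160) and Mrpl27 (-0.16, adjusted p = 0.0450), where 1.67% of all genes were called lower. There, 13 members were lower at an unadjusted p under 0.05 (19.1%, against 8.23% of all genes). On chow 0 of 68 were lower (0.359% of all genes), with 8 lower (11.8%, against 5.54% of all genes) and 1 higher at an unadjusted p under 0.05, led by Mrpl21 (-0.18 ± 0.060, adjusted p = 0.192) and Mrps17. In females 1 member was lower, Mrpl27 (-0.16, adjusted p = 0.0437), against 1.33% of all genes, and Mrpl54 stood at -0.14 (adjusted p = 0.0682). Both Mrpl27 calls were near the threshold: with 1 library left out, the call on western diet held in 15 of 30 omissions (adjusted p 0.0226 to 0.0940) and that in females in 17 of 30 (adjusted p 0.0266 to 0.0962). At an unadjusted p under 0.05 there were 8 members lower in females (11.8%, against 7.87% of all genes). In males 0 of 68 were lower (0.566% of all genes), with 5 lower at an unadjusted p under 0.05 (7.35%, against 6.46% of all genes), led by Mrpl54 (-0.12, adjusted p = 0.101) and Mrpl12 (-0.11, adjusted p = 0.118). The medians were -0.045 on western diet, -0.023 on chow, -0.039 in females and -0.037 in males.

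Calls within a stratum did not amount to a tested difference between strata. Genotype by diet had 0 members called, as over all genes (0%), with 1 higher and 1 lower at an unadjusted p under 0.05. Its smallest p belonged to Mrpl21 (0.20 ± 0.088, adjusted p = 0.9999), followed by Mrps23 and Mrpl19. Genotype by sex had 0 members called (0% of all genes) and 0 at an unadjusted p under 0.05, Mrps36, Mrpl46 and Mrps18c having the smallest p. The genotype by diet by sex term also had 0 called (0% of all genes), with 4 higher and 1 lower at an unadjusted p under 0.05, led by Mrps24 (0.47 ± 0.14, adjusted p = 0.932), Mrpl23 and Mrpl38. DESeq2 and limma-voom called 0 members in these 3 terms as well. Intervals of these terms were wide: they lay within 0.2 of 0 for 39, 41 and 0 of the 68 members.

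**Figure D3:**
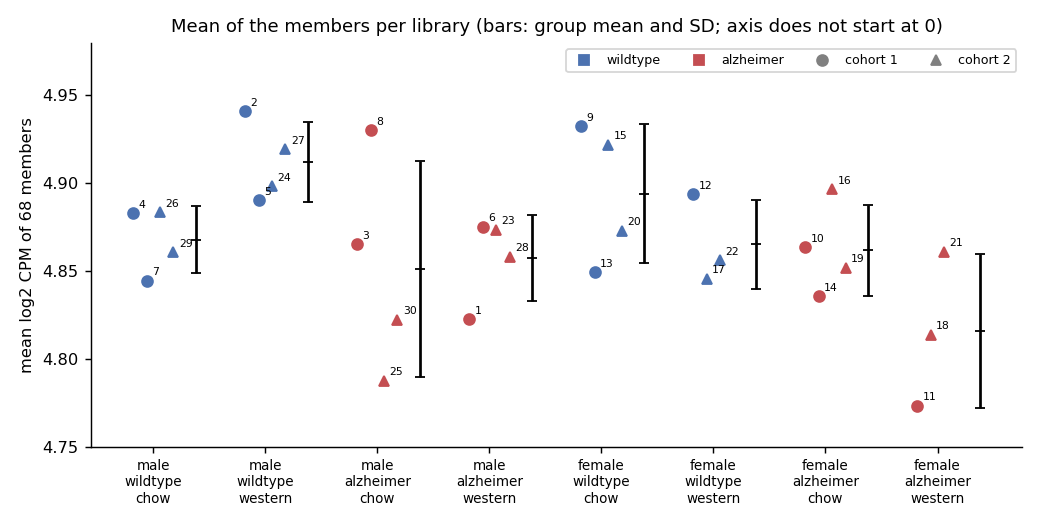
Mean log2 CPM of the 68 members (vertical axis, not starting at 0) in each library by group, with the group mean and SD as bars, genotype as colour and cohort as marker. The 15 alzheimer libraries run from 4.77 to 4.93 and the 15 wildtype libraries from 4.84 to 4.94, so the genotypes overlap.

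Averaged over the 68 members, the level per library ran from 4.77 to 4.94 log2 CPM. It was 4.85 ± 0.041 (SD, n = 15) in alzheimer, with a lowest, median and highest library of 4.77, 4.86 and 4.93. In wildtype it was 4.89 ± 0.032 (SD, n = 15), with 4.84, 4.88 and 4.94. The genotypes overlapped over most of their range. The highest alzheimer library was replicate 8 (4.93), in the male alzheimer chow group, and the lowest of all was replicate 11 (4.77), a female alzheimer western library and 1 of the 3 richest in choroid plexus markers. The group means lay between 4.82 (female alzheimer western) and 4.91 (male wildtype western).

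Western diet moved no member past the test. Diet had 0 members called, where a single gene (0.00797%) was called over the whole table, and 34 members were positive and 34 negative, with a median of 0.0002. At an unadjusted p under 0.05 there was 1 member higher and 3 lower, and DESeq2 and limma-voom called 0. The intervals lay within 0.2 of 0 for 65 of 68 members, the exceptions being Mrpl1, Mrpl23 and Mrps10. The smallest p belonged to Mrpl14 (-0.083 ± 0.032, adjusted p = 0.822), Mrps34 (-0.081 ± 0.032, adjusted p = 0.822) and Mrps21 (0.066 ± 0.029, adjusted p = 0.861). Within wildtype and within alzheimer, the diet contrast had 0 members called (0% and 0% of all genes), with 1 and 3 lower at an unadjusted p under 0.05. Mrpl14, Mrpl19 and Mrps7 had the smallest p in wildtype, and Mrps25, Mrpl23 and Mrps31 in alzheimer.

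Sex and cohort gave the same count. Between females and males 0 members were called (0.837% of all genes), with 3 lower at an unadjusted p under 0.05 and a median of -0.006. These were Mrpl15 (-0.075 ± 0.035, adjusted p = 0.310), Mrps30 (-0.057 ± 0.027, adjusted p = 0.323) and Mrpl2 (-0.074 ± 0.036, adjusted p = 0.332). Between cohorts 0 were called (0.0877% of all genes), with 2 higher and 1 lower in cohort 2 at an unadjusted p under 0.05. These were Mrpl19 (0.11 ± 0.035, adjusted p = 0.175), Mrps26 and Mrpl49. DESeq2 and limma-voom called 0 members for sex and for cohort. The 95% intervals lay within 0.2 of 0 for 66 members in the sex contrast and for 67 in the cohort contrast.

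The diet difference leaned in opposite directions in the sexes without any member passing the test. In males 44 of 68 members were positive on western diet (median 0.024), with 0 called (0.128% of all genes) and 8 higher at an unadjusted p under 0.05 (11.8%, against 5.12% of all genes). Mrpl48 (0.11 ± 0.038, adjusted p = 0.253), Mrps21 and Mrps27 had the smallest p. In females 46 of 68 were negative (median -0.034), with 0 called (0.183% of all genes) and 6 lower at an unadjusted p under 0.05 (8.82%, against 4.83% of all genes), led by Mrps25 (-0.15 ± 0.038, adjusted p = 0.103), Mrpl45 and Mrpl35. The difference itself, diet in females minus diet in males, had 54 of 68 members negative with a median of -0.056, against -0.004 over all genes. It had 0 called, where 1.23% of all genes were called, and 11 lower at an unadjusted p under 0.05 (16.2%, against 6.76% of all genes). DESeq2 called 1 (Mrps25, adjusted p = 0.0457), where 0.837% of all genes were called lower, and limma-voom 0 (0.47% of all genes). With each cohort fitted alone, 36 of 68 members were negative in both and 6 positive in both (medians -0.046 and -0.10). Averaged over the members, wildtype males were at 4.87 log2 CPM on chow and 4.91 on western diet, and alzheimer males at 4.85 and 4.86. Wildtype females were at 4.89 and 4.87, and alzheimer females at 4.86 and 4.82.

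Markers of microglia and vessels were among the genes called in the diet-by-sex term. Endothelial markers were negative for 4 of 4 (median -0.24), with Cldn5 called lower (-0.26, adjusted p = 0.0107), and microglial markers for 4 of 5 (median -0.24), with P2ry12 called lower (-0.46, adjusted p = 0.0236). All 5 oligodendrocyte markers (median -0.20) and all 3 ependymal markers (median -0.40) were negative, with 0 called. The endothelial sum was 242 to 290.8 CPM in females on chow, 201.9 to 279.1 CPM in females on western diet, 204.6 to 259.5 CPM in males on chow and 221.5 to 298.1 CPM in males on western diet. The microglial sum was, in the same order, 199.4 to 229.8, 197.7 to 222.5, 169.4 to 214.4 and 188.1 to 222.7 CPM. The sums overlapped between all 4 sets of libraries for both lists. Of 6 neuronal markers 2 were negative (median 0.041), with 0 called. Their part in the members' result was not tested.

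Mrps25, a mitochondrion-specific small-subunit protein, came nearest. In wildtype males it was at 39.2, 39.8, 40.2 and 41.6 CPM on chow and 42.1, 42.4, 43.4 and 45.1 CPM on western diet. In alzheimer males it was at 40.3, 40.8, 41.8 and 42.6 CPM on chow and 37.4, 41.7, 41.9 and 42.7 CPM on western diet. Western diet was thus higher without overlap in wildtype males and overlapped chow in alzheimer males. In wildtype females it was at 41.9, 42.5, 42.6 and 46.5 CPM on chow and 39.7, 39.9 and 40.3 CPM on western diet. In alzheimer females it was at 42.6, 42.9, 43.7 and 44.6 CPM on chow and 35.6, 39.99 and 40.6 CPM on western diet. Western diet was lower without overlap in females of both genotypes. The diet-by-sex term was -0.19 ± 0.051 (adjusted p = 0.0561), and with 1 of replicates 1, 3, 8 and 20 left out it passed the test, the adjusted p over all 30 omissions running from 0.0350 to 0.137. Next were Mrpl48 (-0.17 ± 0.055, adjusted p = 0.120) and Mrpl10, the base of the L12 stalk (-0.16 ± 0.054, adjusted p = 0.153).

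**Figure D4:**
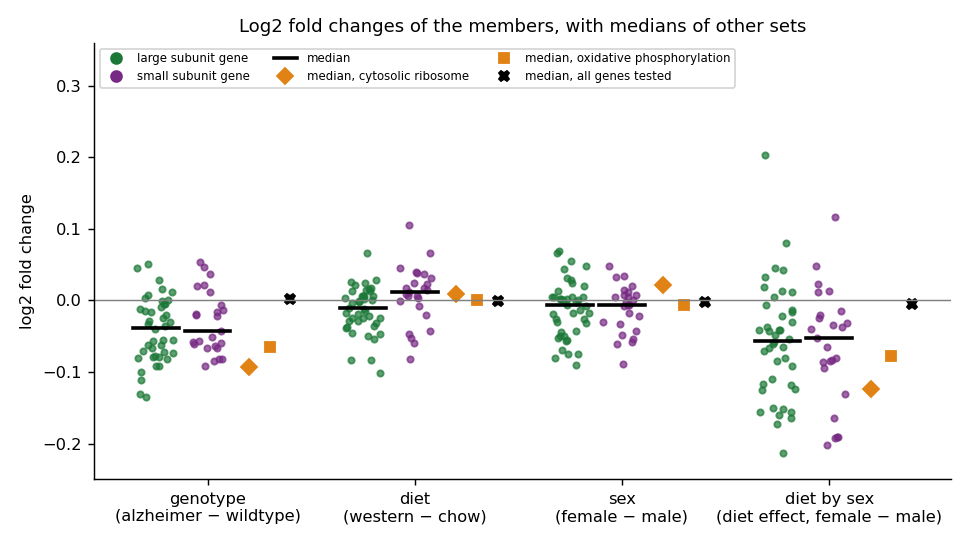
Log2 fold changes (vertical axis) of the members for genotype, diet, sex and the diet-by-sex term, with large-subunit and small-subunit members in separate columns. Each point is 1 member, and Mrps36 is not drawn. Black bars are the median of each subunit, and symbols are the medians of other gene sets. Over all 68 members, which have no bar of their own, the medians are -0.038, 0.0002, -0.006 and -0.056.

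Other genes of mitochondrial translation were compared from hand-written lists. Of 6 mitoribosomal proteins with other names, 1 was lower in alzheimer: Aurkaip1, a small-subunit protein (-0.081 ± 0.025, adjusted p = 0.0409). Dap3, a GTP-binding small-subunit protein, stood at 0.051 ± 0.030 (adjusted p = 0.333). Among 12 translation factors, 18 tRNA synthetases and amidotransferase subunits, 24 assembly and rRNA modification genes, and 22 genes of mitochondrial transcription and RNA handling, 0 passed in either direction. Their medians were -0.009, 0.021, -0.010 and 0.013. The elongation factor Gfm1 stood at -0.098 ± 0.039 (adjusted p = 0.122) and Tufm, its partner factor, at -0.023 ± 0.022 (adjusted p = 0.599). Of 12 nuclear regulators 0 passed. Nrf1, Gabpa and Yy1, whose letters were searched in the promoters, stood at -0.023 (adjusted p = 0.872), -0.051 (adjusted p = 0.449) and 0.073 (adjusted p = 0.204).

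The cytosolic ribosome and the nuclear part of oxidative phosphorylation had larger medians and more calls in the same contrast. Of 75 tested cytosolic ribosomal protein genes 56 were lower in alzheimer, with a median of -0.093, and of 73 nuclear oxidative phosphorylation genes 28 were lower, with a median of -0.065. In the diet-by-sex term 73 of 75 and 68 of 73 were negative, with medians of -0.12 and -0.077 and with 3 and 0 called. No test of a difference between these lists was made. The median standard error of the genotype estimate was 0.035 over the members and 0.042 over all genes. It was not taken over the cytosolic ribosomal and oxidative phosphorylation lists, and the count of calls depends on it too. Some markers of hippocampal cells changed in the same comparison: 2 of 3 CA1 markers were lower in alzheimer, Wfs1 (-0.20, adjusted p = 0.00313) and Pou3f1 (-0.16, adjusted p = 0.0198). Their list summed to 717.8 to 1158 CPM in alzheimer (median 843.9) and 803.6 to 1087 CPM in wildtype (median 1003). The third CA1 marker, Fibcd1, stood at 0.15 (adjusted p = 0.786). Endothelial markers had 2 of 4 lower and summed to 201.9 to 259.5 CPM against 204.6 to 298.1 CPM. A single marker each was called lower among 5 of oligodendrocytes, 5 of microglia, 5 of interneurons and 2 tested ones of the dentate gyrus. Estimates were negative for 4 of 5, 3 of 5, 2 of 5 and 1 of 2 of these markers. The interneuron list had a median of 0.022, so it did not go down as a whole. Calls went both ways among neuronal markers (Nrgn lower, Syt1 higher) and astrocyte markers (Slc1a3 lower, Gfap higher), and of 2 tested CA3 markers Homer3 was higher (0.15, adjusted p = 0.0358). The part of these shifts in the members' result was not tested.

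After group and cohort means were removed, members varied together from library to library. Over 2278 pairs of members the mean correlation was 0.118, with 1604 pairs above 0, against a mean of 0.00032 over all pairs of tested genes. For 62 of 68 members the correlation with the mean of the others was positive, with a median of 0.374. It was highest for Mrps28 (0.674), Mrps18a (0.667) and Mrpl27 (0.640). It was 0.543 for Mrpl54 and 0.387 for Mrpl12. Mrps2 went against the others at -0.608, and Mrpl10 (-0.248), Mrps18b (-0.227), Mrpl51, Mrps9 and Mrps30 were negative too. These are descriptions over 30 libraries that share depth and scaling. In the mean over all pairs of tested genes, positive and negative correlations cancel. Sets of other genes matched to the members in level were not compared.

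The members' mean followed the nuclear oxidative phosphorylation genes closely. Over 30 libraries the Pearson correlation was 0.92 (Spearman 0.911), and 0.872 without the 2 libraries farthest from the median. It was 0.932 in cohort 1 and 0.923 in cohort 2. With the mean of cytosolic ribosomal protein genes it was 0.77 (Spearman 0.701), and 0.709 without the 2 farthest. With the log2 library total it was 0.014. The 5 genes outside the members with the highest correlation were Atp5f1e (0.861) and Atp5f1d (0.849), which encode subunits of the ATP synthase, the proteasome subunit Psmb7 (0.841), Dipk1b (0.839) and Oaz1 (0.833), an inhibitor of polyamine synthesis.

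**Figure D5:**
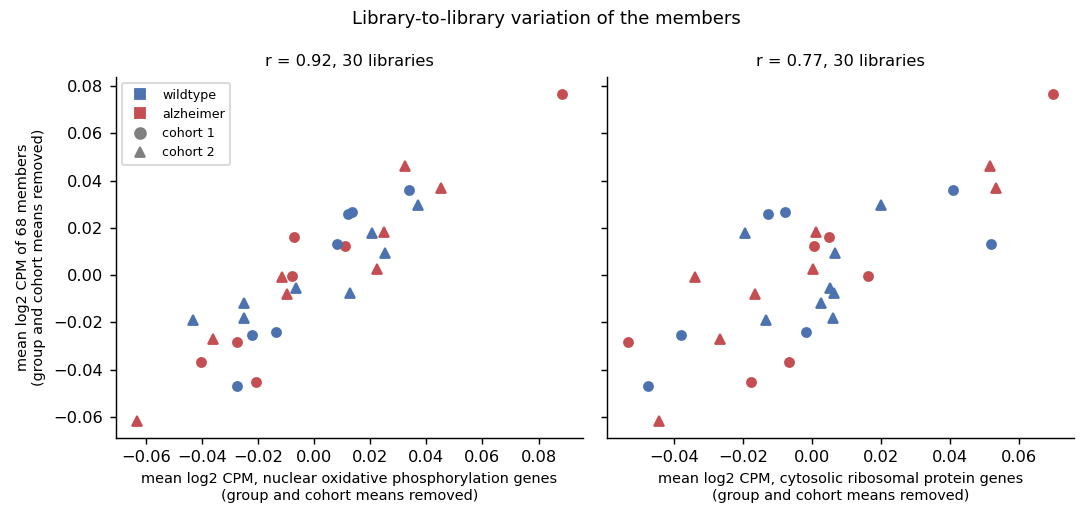
Mean log2 CPM of the 68 members (vertical axis) against that of nuclear oxidative phosphorylation genes and of cytosolic ribosomal protein genes (horizontal axes), 1 point per library, group and cohort means removed, genotype as colour and cohort as marker. The points lie closer to a line in the first panel (r = 0.92) than in the second (r = 0.77).

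Members tied more closely to this shared variation had the more negative genotype estimates. Across the 68 members, which are not independent replicates, the correlation of the genotype log2 fold change with the correlation to the mean of the others was -0.311. Among the 34 members more tied to the shared mean 29 were negative, with a median of -0.056, and among the other 34 there were 25, with a median of -0.023. With the mean level, the correlation of the genotype log2 fold change was 0.133.

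Some symbols carry uncertainty in the counting. RefSeq lists pseudogenes of the same symbol for 22 of the 68 members, 31 in all, among them 3 for Mrps36 and 1 for Mrpl54, and reads could be split between copies. Of 67 members located on GRCr8, 17 overlap another gene, 14 of them a protein-coding gene and 10 a gene that was tested. Mrpl54 and Mrpl12 overlap none.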

How the data were processed

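The 30 dorsal hippocampus libraries were made from poly(A) RNA, per the labels' protocols. The authors deposited raw counts, with genes in rows and libraries in columns, all of them whole numbers. Per the submitters' processing notes, cutadapt and STAR 2.7.0a were used. For the counting tool, strand setting, build and annotation, the entry is "not given in the sources used here". All 17455 genes entered 1 edgeR 4.0.16 fit (R 4.3.3): filterByExpr on the 8 groups (minimum count 10, total 15), TMM, 8 group terms plus cohort, quasi-likelihood F test, two-sided, Benjamini-Hochberg over 12547 genes, and "called" for an adjusted p under 0.05. Common biological variation was 6.27%. Log2 fold changes are given ± SE, the change over the root of F, with 95% intervals from the t distribution. CPM values are scaled by TMM. Contrasts average strata with equal weights.

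Alternatives were median-of-ratios factors, no filter, 1 CPM in at least 8 libraries, DESeq2 1.42.0, limma-voom (limma 3.58.1), no cohort term, 2 surrogate variables (sva 3.50.0), log2 library size, each cohort alone, and each library left out. The fit was also run on simulated data with the same biological variation for all genes and no cohort effect. Its outcome is not given here and is not used to back the calls. Members, lists and the rule for named genes (called members by size, otherwise the 3 smallest p, plus members with known special roles and the extremes of CPM) were chosen with earlier results of these data known. Promoter sequences are RefSeq's on GRCr8, matched by symbol.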

Additional observations from a re-analysis of the deposited data

Results flagged for a closer look

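Groups of 4 libraries were looked at for 19 quantities, which were named members and the mean over all members. In these 114 sets 7 values, each of a named member in CPM, stood apart from the other 3 of their group. That rate is close to the 1 in 20 that chance gives. In female wildtype chow, replicate 15 was the highest for Mrps25 at 46.52 CPM, with the others at 41.92 to 42.57, and replicate 13 the lowest for Mrpl3 at 66.93 CPM, with the others at 74.76 to 76.28. In male alzheimer western, replicate 6 was the highest for Mrps10 at 14.78 CPM (others 12.76 to 12.8) and replicate 23 the lowest for Mrps36 at 33.86 CPM (others 36.26 to 36.74). In female alzheimer chow, replicate 16 was the highest for Mrps18c at 18.91 CPM (others 16.72 to 17.04). In male wildtype chow, replicate 26 was the highest for Mrps12 at 21.3 CPM (others 18.52 to 18.93). In male wildtype western, replicate 2 was the lowest for Mrps30 at 41.44 CPM (others 43.27 to 43.63). The 7 values belong to 7 different libraries and 7 different genes, and the cause was not tested.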

How the results depend on the processing

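No result changed sign among those called. The members lower by genotype (3 in the report) numbered 5 with 2 surrogate variables (Mrpl42 and Mrpl48 added), 0 in cohort 1 alone and 1 in cohort 2 alone, where 4.57%, 0.165% and 2.33% of all genes were called lower, and 2 to 8 with 1 library left out (8 without replicate 8, 4 without replicate 13 or 29). Without replicate 8, 13 or 29 the share of all genes called lower was 4.88%, 4.26% or 3.57%. Mrpl54 and Mrpl27 were called in all 30 omissions, at -0.146 to -0.122 and -0.148 to -0.123. Mrpl12 lost its call without any 1 of replicates 1, 2, 4, 5, 6, 11, 14, 18, 19, 20, 22, 23, 25, 26, 27 and 30, with no filter (adjusted p = 0.0609) and with log2 library size (adjusted p = 0.0591). Without the 3 libraries richest in choroid plexus markers, an alternative chosen after seeing the data, the count was 2. Genotype on western diet (2 lower) gave 1 with no filter, with no cohort term, with 2 surrogate variables, with log2 library size and without those 3 libraries, 0 in each cohort alone, 3 with DESeq2 (Mrps23 added, adjusted p = 0.0464), and 1 to 2 with 1 library left out. Genotype in females (1 lower) gave 2 with DESeq2 and limma-voom (Mrpl54 added), 0 with no cohort term, 2 surrogate variables, log2 library size, either cohort alone and those 3 libraries removed, and 0 to 2 with 1 library left out. Diet by sex (0 lower) gave 1 with DESeq2 (0.837% of all genes called lower) and 0 to 2 in the omissions. The 2 came without replicate 8, where Mrps18a joined Mrps25 (0.789% of all genes). Mrps15 alone was called without replicate 27 (0.494% of all genes). Genotype in males (0 lower) gave 0 to 1, the 1 being Mrpl54 without replicate 8 (-0.156, adjusted p = 0.0113). The cause of these changes was not tested. For the genotype contrasts split by diet or sex, the share over all genes was not taken under the alternatives. The members' median for genotype ran from -0.049 to -0.029 over the omissions. Cohort 1 alone holds 14 libraries, with 1 in each female western group, whose spread is assumed to be that of the other groups. The share of member promoters with ETS-type letters was 18.9% and with YY1-type letters 3.77% in the 250 bases before the start alone. No paired analysis was possible because the replicate numbers run from 1 to 30 and no groups share one.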
